A study of Mus musculus with 10 samples.

Results

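CD117+ splenocytes that had received no lipopolysaccharide (LPS) were profiled on 1 array from wild-type (WT) mice and 1 array from RasGRP4-null mice, and their transcripts are described here. Both arrays were taken by their 0 h label, and they are 2 of the 10 arrays of the study. RasGRP4 is a guanine nucleotide exchange factor that loads Ras with GTP, known chiefly from mast cells (MCs) and their progenitors, and the study asked how its loss alters the response of CD117+ spleen cells to LPS. The other 8 arrays came from cells of the same genotypes kept with LPS at 1 µg/ml for 12, 24, 36 or 48 h, and they serve here only as contrast.

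The WT group held CD117+ splenocytes of 5 male C57BL/6 mice, 9 to 12 weeks old, and the RasGRP4-null group held those of 5 male mice of the same strain and age that lacked a working Rasgrp4 gene throughout the body. The cells were purified by positive selection for CD117 (the receptor KIT) and then divided into aliquots, so each array may have held RNA of pooled animals, and arrays of 1 genotype may share a single cell preparation, which the labels do not state outright. Neither untreated group received LPS. WT mice were bought from a supplier and the RasGRP4-null line was bred elsewhere, so origin and genotype cannot be told apart. Time points follow the sample titles. For 36 h the design text has 6 h, and 3 RasGRP4-null LPS arrays carry an earlier time in their source name, while neither untreated array has such a conflict. No condition was replicated, so differences between the untreated arrays are given as values without a p-value unless a fit is named.

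Spleen red pulp holds macrophages that clear aged erythrocytes and recycle their iron, its white pulp holds B and T cells, and dendritic cells (DCs) lie between them. KIT is the receptor for stem cell factor and is carried by hematopoietic progenitors, MCs and their precursors, some innate lymphoid cells and some DC precursors. Immediate early genes such as Fos and Egr1 are transcribed within minutes of a stimulus, cell isolation included, and their mRNAs decay fast.

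Values are PLIER intensities, the brightness of a gene's probe set after background correction. Brightness of different probe sets cannot be ranked as abundance, because each set of probes binds with its own strength. Olfactory receptors, which blood cells do not use, served to set the background: their 1089 probe sets had a 95th percentile of 38.5 on the WT and 31.2 on the RasGRP4-null untreated array, and a gene was counted as present above that level of its own array. Of 25664 genes, 11302 (44.0%) were above background in untreated WT cells, 12286 (47.9%) in untreated RasGRP4-null cells and 10810 (42.1%) in both. The RasGRP4-null level was the lower one, so a gene could count there at an intensity that did not count in WT.

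Rasgrp4 itself read 86.4 in untreated WT cells and 16.7 in untreated RasGRP4-null cells. The WT value was the only one of the 10 arrays above background, since the LPS arrays of both genotypes lay between 20.6 and 25.5. The transcript was thus at least 2.77-fold brighter in untreated WT cells, against the background level of the RasGRP4-null array. Its relatives Rasgrp1, a T cell exchange factor, at 264 and 237, Rasgrp2, a platelet and neutrophil exchange factor, at 212 and 199, and Rasgrp3, a B cell exchange factor, at 365 and 295, were above background on both arrays. Kit read 292 in WT and 287 in RasGRP4-null cells, above background on both. The Y-linked genes Ddx3y (379 and 271) and Eif2s3y (186 and 176) matched the male label, and Xist read 30.6 and 33.6, near the background level. Mela, an endogenous retroviral transcript, was at 3825 in untreated RasGRP4-null cells and between 2114 and 3594 in the RasGRP4-null cells at 24, 36 and 48 h of LPS. It was at 21.2 on the 12 h RasGRP4-null array and between 44.2 and 88.5 on the 5 WT arrays, so the 12 h array stood apart from its genotype in this gene. Wdfy1, an endosomal adaptor whose level is known to differ among C57BL/6 substrains, read 30.6 without LPS in WT and 52.6 in RasGRP4-null cells. On the LPS arrays Wdfy1 ran from 62.8 to 96.4 in WT and from 129 to 197 in RasGRP4-null cells (limma log2 difference 0.88 ± 0.10 SE, adjusted p = 0.00667, or 0.81 and 0.118 without the 24 h arrays). Across the genes tested on the LPS arrays, 0.224% were called in either direction.

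The brightest transcript of untreated CD117+ splenocytes was Fosb, a partner of Jun in the AP-1 transcription factor, at 8964 in WT and 11130 in RasGRP4-null cells. It was followed by Hpgd, the enzyme that inactivates prostaglandins, at 8251 and 7592, by the translation initiation helicase Eif4a1 at 6760 and 6843, and by C1qc, a chain of the complement component C1q, at 5842 and 6537. These are brightness values of single probe sets and give no order of abundance. Among the 30 brightest genes, 13 were mitochondrial, among them COX1 at 5908 and 5729, 4 were small non-coding RNAs, 1 was ribosomal RNA and 2 were immediate early genes, Fosb and Zfp36. Zfp36, which encodes an mRNA decay factor for cytokine transcripts, read 4811 and 4344. B2m, the light chain of MHC class I, read 4658 and 4617. The iron storage subunit Fth1 read 3427 and 3365, and Rgs2, a brake on G protein signaling, 3278 and 3621. S100a8, a subunit of the neutrophil protein calprotectin, read 5108 in WT against 3108 in RasGRP4-null cells, the widest gap among the 30 brightest. Both arrays shared 25 of their 30, 88 of their 100 and 922 of their 1000 brightest genes.

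Of the 100 brightest genes, 15 were mitochondrial, 18 small non-coding RNAs, 8 immunoglobulin genes, 6 immediate early genes and 47 fell in none of the classes used. Among the latter were genes of red pulp phagocytes. Fcna, a soluble lectin of the complement system, read 3305 and 3345, and Hmox1, the enzyme that opens the heme ring, 3346 and 2603. Emr4, an adhesion receptor of macrophages, read 2358 and 2379. Itgad, an integrin chain of red pulp macrophages, lay outside the 100 at 1597 and 1655. The RasGRP4-null minus WT difference over the 100 genes had a median of -0.0096 and an SD of 0.226 on the log2 scale. It ran from -0.71 for S100a8 to 1.01 for Igkv19-93, an immunoglobulin kappa variable segment, which was the only one of the 100 past 2-fold.

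Immediate early and stress genes were bright in untreated cells of both genotypes. Of 19 such genes, 18 were above background on both untreated arrays, and 17 of the 18 tested were higher in untreated than in LPS-treated cells, with none lower. Across all 11178 genes tested, 21.5% were higher and 48.0% lower in untreated cells. Fosb lay between 19.8 and 27.2 (median 24.1) on the LPS arrays, below background on all 8, so it was at least 329-fold brighter in untreated cells. Fosb was one of 3 tested members that reached the filter of 50 on the untreated arrays alone, and for such genes no p is given, since they had to differ. Fos, its close relative, fell from 2549 and 3704 to between 19.8 and 61.8 with a median of 38.6 (limma log2 difference 5.86 ± 0.16 SE, adjusted p = 2.68e-10). Klf2, a factor of quiescent lymphocytes and endothelium, fell from 2099 and 3011 to between 77.2 and 114 with a median of 89.3 (4.54 ± 0.13, adjusted p = 3.84e-10). Zfp36 fell least of those named, to between 493 and 1110 with a median of 712 (2.65 ± 0.14, adjusted p = 3.94e-08). For these transcripts both untreated arrays lay above all 8 LPS arrays. Other members at high levels were Egr1 (1605 and 1979), Nr4a1 (2482 and 2328), Jun (1616 and 1986), Junb (1463 and 1845), Atf3 (1724 and 1775) and the MAP kinase phosphatase Dusp1 (1850 and 2382). All of these were measured at 0 h against 12 h or more of culture with LPS, and no array here held cells cultured for such a time without LPS, so LPS and time in culture cannot be told apart. The labels do not say whether the 0 h cells were taken directly after selection or plated first.

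The upstream regions of these genes are shown because the set was bright in untreated cells of both genotypes. TGACG, the core of the site that CREB and related factors bind, was searched on both strands in the 250 bases before the transcription start in RefSeq (GRCm38.p6). It was present in 9 of 16 immediate early genes with a window (56.2%), against 5836 of 32851 windows of that length (17.8%). The CArG box, the site of serum response factor, was present in 2 of the 16 (12.5%), Egr2 and Zfp36, against 1.47% of all windows. A list gene counted if any of its windows matched, whereas the share over all windows counts single windows, so these percentages have unlike units. Such matches describe the letters only. Capitals mark TGACG, or CGTCA where it lies on the other strand, and in Zfp36 the CArG box. The windows are Fosb at chr7:19310046-19310295 on the minus strand, Fos at chr12:85473640-85473889 on the plus strand, Nr4a1 at chr15:101266596-101266845 on the plus strand and Zfp36 at chr7:28379229-28379478 on the minus strand.
Fosb: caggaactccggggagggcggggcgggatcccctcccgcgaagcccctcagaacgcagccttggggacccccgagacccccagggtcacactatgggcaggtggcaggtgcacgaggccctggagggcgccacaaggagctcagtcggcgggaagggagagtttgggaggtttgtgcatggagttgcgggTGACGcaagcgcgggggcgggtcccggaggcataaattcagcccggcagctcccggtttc
Fos: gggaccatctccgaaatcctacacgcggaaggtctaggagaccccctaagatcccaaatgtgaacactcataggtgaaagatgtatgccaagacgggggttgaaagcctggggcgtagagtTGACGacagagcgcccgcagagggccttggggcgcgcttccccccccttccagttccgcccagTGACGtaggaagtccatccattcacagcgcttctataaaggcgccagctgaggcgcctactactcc
Nr4a1: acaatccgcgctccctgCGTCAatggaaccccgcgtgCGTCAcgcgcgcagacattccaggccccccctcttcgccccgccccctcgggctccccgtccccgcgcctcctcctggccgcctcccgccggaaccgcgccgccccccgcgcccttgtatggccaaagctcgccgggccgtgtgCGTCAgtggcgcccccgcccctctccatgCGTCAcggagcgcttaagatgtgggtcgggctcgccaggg
Zfp36: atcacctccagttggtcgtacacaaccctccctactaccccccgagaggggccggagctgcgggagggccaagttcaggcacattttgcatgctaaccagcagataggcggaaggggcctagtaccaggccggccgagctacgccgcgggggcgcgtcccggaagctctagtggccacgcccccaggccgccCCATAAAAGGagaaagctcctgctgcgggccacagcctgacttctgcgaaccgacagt
The match nearest to the start lay 55 bases before it in Fosb, 61 in Fos and 35 in Nr4a1, which held 4 matches, and the CArG box of Zfp36 lay 48 bases before the start.

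The splenic macrophage list was complete in untreated CD117+ splenocytes. All 16 markers were above background on both arrays, where 42.1% of all genes were. Vcam1, the adhesion molecule by which red pulp macrophages hold blood cells, read 1767 in WT and 1820 in RasGRP4-null cells. The C1q chains C1qa (1984 and 2402) and C1qb (1964 and 2097), the hemoglobin scavenger receptor Cd163 (1861 and 2780) and the iron exporter Slc40a1 (1289 and 1158) were accompanied by Mertk, a receptor kinase for uptake of dying cells (2153 and 1874). Spic, the transcription factor of red pulp macrophages, was at 995 and 832. Marco, which marks marginal zone macrophages, was at 130 and 81.9. The median difference between the genotypes over the list was 0.05, with 9 genes higher in RasGRP4-null cells. Bulk RNA cannot tell more cells of a type from more RNA per cell, here or in any list below.

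DC markers were present on both untreated arrays. Itgax, the CD11c chain, read 522 and 486, and the DC growth factor receptor Flt3 357 and 325. All 5 shared DC markers measured were above background on both arrays, with 7 of 9 of the XCR1-type list, 6 of 8 of the SIRPA-type list and 7 of 9 of the plasmacytoid list. Xcr1, the chemokine receptor of cross-presenting DCs, read 170 and 156, and Cadm1, an adhesion molecule of the same DCs, 1137 and 1321. Sirpa, an inhibitory receptor of the other conventional DC type, read 1491 and 1464, and Clec4a4 216 and 258. Siglech, a defining lectin of plasmacytoid DCs, was much nearer background at 69.1 and 41.6. All 10 monocyte markers were above background as well, with a median difference of 0.06.

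Lymphocyte markers were as widespread as myeloid ones. All 14 B cell markers were above background on both arrays, including the antigen receptor chain Cd79a (1379 and 1290), the B cell surface protein CD20 encoded by Ms4a1 (979 and 906) and the complement receptor Cr2 (690 and 732). All 12 T cell markers measured were above background too, at lower brightness, with Cd3e at 131 and 148 and Cd4 at 210 and 253. Of 12 natural killer cell markers, 10 were above background on both arrays, among them the activating receptor Ncr1 (188 and 213) and the granule protein Nkg7 (368 and 478). The median genotype difference was -0.15 for B cell, 0.16 for T cell and 0.22 for natural killer cell genes, against -0.01 over all 12778 genes above background on at least 1 untreated array. In no DC, macrophage, monocyte or lymphocyte list was a member past 2-fold between the genotypes.

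Cells that CD117 is best known for left a smaller trace. Of 12 MC markers, 3 were above background on both untreated arrays and 7 on neither: the chymases and tryptases Cma1, Mcpt1, Mcpt2 and Tpsb2, both IgE receptor chains Fcer1a and Ms4a2, and the IL-33 receptor Il1rl1. Cpa3, the MC carboxypeptidase, read 79.4 in WT and 194.5 in RasGRP4-null cells, and from 102 to 516 on the LPS arrays. Mcpt4, a connective tissue MC chymase, read 9.79 and 39.8, above background in RasGRP4-null cells alone. Hdc, which makes histamine, read 52.7 and 32.9, and the transcription factor Gata2 53.4 and 61.0. The basophil protease Mcpt8 was below background on both arrays (21.5 and 25.9), and Prss34, the other basophil protease, was at 67.8 and 66.6. Of 5 eosinophil genes 4 were above background, led by the eotaxin receptor Ccr3 at 1035 and 1138, with the granule major basic protein Prg2 at 155 and 226. The eosinophil peroxidase Epx was below background, so the list is not complete in the gene that defines the granule.

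Stem and progenitor markers were mixed. Of 11 measured, 6 were above background on both arrays: beside Kit, these included the hematopoietic regulators Lmo2 (245 and 247), Myb (268 and 247) and Hlf (102 and 116). Cd34, the surface marker of multipotent progenitors, was below background at 26.5 and 23.1. Of 7 megakaryocyte and platelet markers 1 was above background on both arrays, of 9 markers of innate lymphoid cells 3, and of 7 stromal and endothelial markers 5. Kit, the gene of the CD117+ label, was thus accompanied by markers of mature macrophages, DCs and B cells on both arrays. No array of unselected splenocytes was used here, so enrichment for KIT could not be measured. The plot of markers by cell type shows each gene on both arrays.

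**Figure D1:**
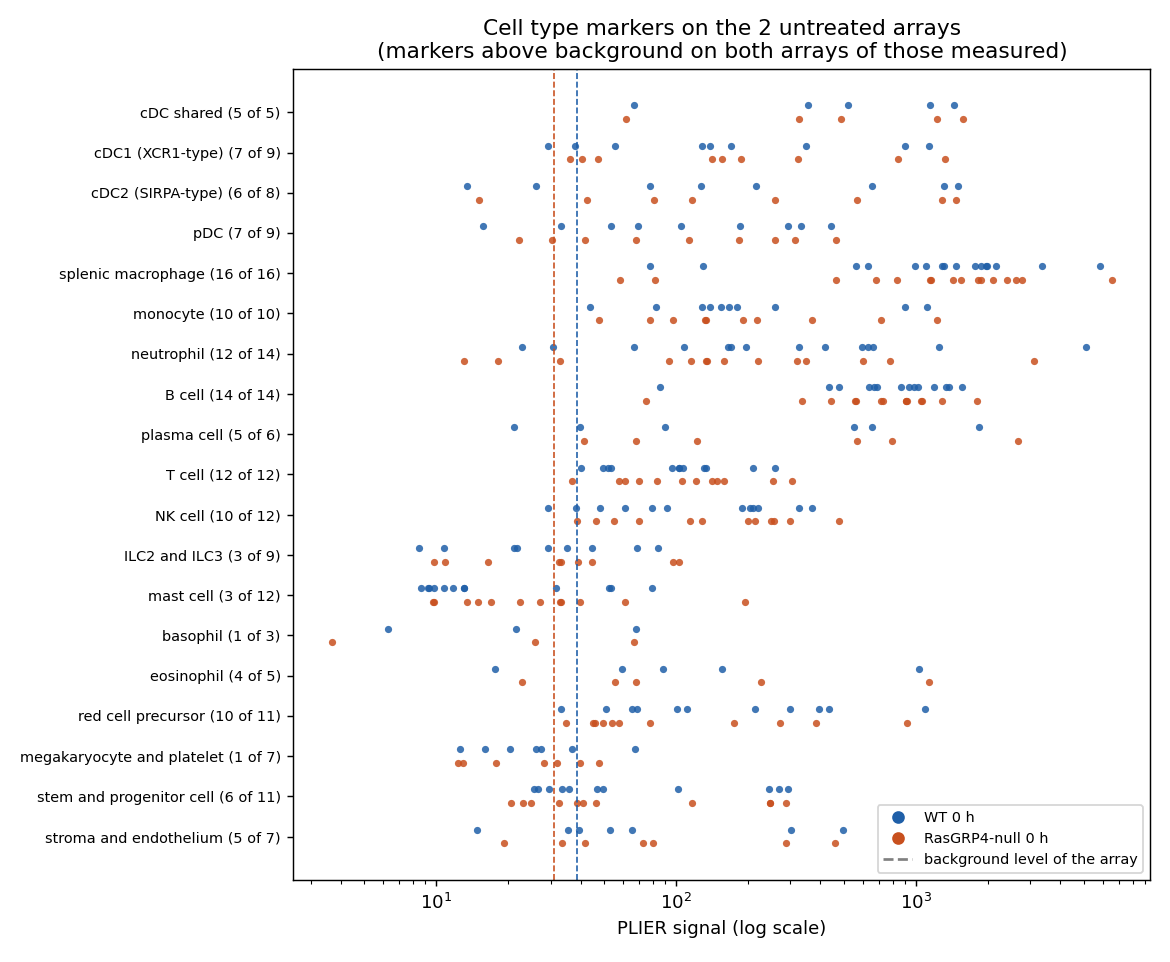
PLIER intensity (log axis) of each marker on the 2 untreated arrays, WT and RasGRP4-null, grouped by cell type list, with the background level of each array as a dashed line. All 16 splenic macrophage markers lie above background, whereas 7 of 12 mast cell markers lie below it on both arrays.

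Receptors that sense growth factors, LPS and cytokines were broadly present before LPS. Of 11 hematopoietic growth factor receptors, 9 were above background on both untreated arrays and all 11 on the RasGRP4-null array, where that level was lower. The lowest values of the list were close, at 33.2 in WT and 34.7 in RasGRP4-null cells. Csf1r, the receptor for the macrophage growth factor, read 1307 and 1427. The chains of the GM-CSF receptor were at 343 and 331 for Csf2ra and at 184 and 189 for Csf2rb, and Il5ra, the eosinophil receptor chain, was at 88.7 and 55.6. None of the 11 was past 2-fold between the genotypes.

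Of 18 genes of Toll-like receptors and LPS recognition, 17 were above background on both arrays. Ly86 (1661 and 1896) and Cd180 (1012 and 901), which encode the MD-1 and RP105 proteins of the B cell and DC endotoxin receptor, were above background, as were Ly96 (306 and 346) and Tlr4 (69.4 and 85.6), which encode the MD-2 and TLR4 proteins of the LPS receptor. The co-receptor Cd14 read 166 and 218. Sensors of nucleic acid were represented by Tlr9 (442 and 462), Tlr7 (238 and 213) and Tlr13 (169 and 153). Tlr4 in untreated cells did not pass the test against the LPS arrays, where it lay between 35.6 and 92.1 (log2 difference 0.14 ± 0.14 SE, adjusted p = 0.416), but it did when values were scaled by GAPDH (1.09, adjusted p = 3.03e-06) and when the 12 h arrays were the only contrast (0.57, adjusted p = 0.0166).

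Of 17 chemokine receptors 11 were above background on both arrays, led by Ccr7 (1445 and 1569), which guides DCs and lymphocytes to lymphoid tissue, Ccr3 and the CXCL12 receptor Cxcr4 (977 and 986). Of 30 cytokine receptor genes 25 were above background on both arrays, including the interferon receptor chains Ifngr1 (893 and 938) and Ifnar2 (556 and 596). Il1r2, the decoy receptor for IL-1, was the only one past 2-fold, at 438.7 in WT and 149.8 in RasGRP4-null cells. Fc receptors (9 of 12), C-type lectins (12 of 18) and MHC class II genes (6 of 6) were above background on both arrays too. Among them were the shared Fc receptor chain Fcer1g (1809 and 2040), the low affinity IgE receptor Fcer2a (1189 and 1059), the mannose receptor Mrc1 (1464 and 1544), Cd209a (1306 and 1287) and the class II chain H2-Eb1 (3370 and 3389). Of 12 costimulatory and maturation genes 9 were above background on both, with Cd83 at 918 and 819, Cd86 at 703 and 451 and Cd80 at 312 and 216.

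Untreated cells of both genotypes agreed closely across genes. Over the 12778 genes above background on at least 1 untreated array, the log2 difference, RasGRP4-null minus WT after adding 16 to each intensity, had a median of -0.013 and an SD of 0.313, and 94.2% of genes lay within 1.5-fold. Pearson's r across genes was 0.967 and Spearman's rho 0.945, for genes which are not independent replicates. The genotype pairs of the 4 LPS times had SDs between 0.225 and 0.320, so the untreated pair lay at the wide end of that range. Untreated arrays set against LPS arrays of the same genotype differed far more, with SDs between 0.88 and 0.932 and r between 0.741 and 0.772.

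Between the untreated genotypes 43 genes (0.337%) were past 2-fold higher and 91 (0.712%) past 2-fold lower in RasGRP4-null cells. At the threshold, Cda (50.8 and 118) and Snrpc (62.6 and 23.3) lay just inside, and Colec11 (10.2 and 36.3, 0.997) lay just outside. Of these, 24 of the 43 and 69 of the 91 had a mean intensity under 100, as did 7051 of all 12778 genes. Past 2-fold in either direction were 1.32% of those 7051 genes. The 325 genes with a mean of 1000 or more had 4 past 2-fold higher and 0 lower (1.23%), and the classes between had 0.768% (100 to 300) and 0.468% (300 to 1000). Of the 43, 10 differed in the same direction in all 4 LPS pairs and 1 in none, and of the 91, 10 did so in all 4 and 5 in none. Over all 12778 genes 8.74% had the same sign in all 4 LPS pairs. Of the 30 higher genes that were tested on the LPS arrays, 2 were called in the same direction there (Ighg3 and Igkv19-93), and of the 52 lower genes tested 0 were (limma).

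**Figure D2:**
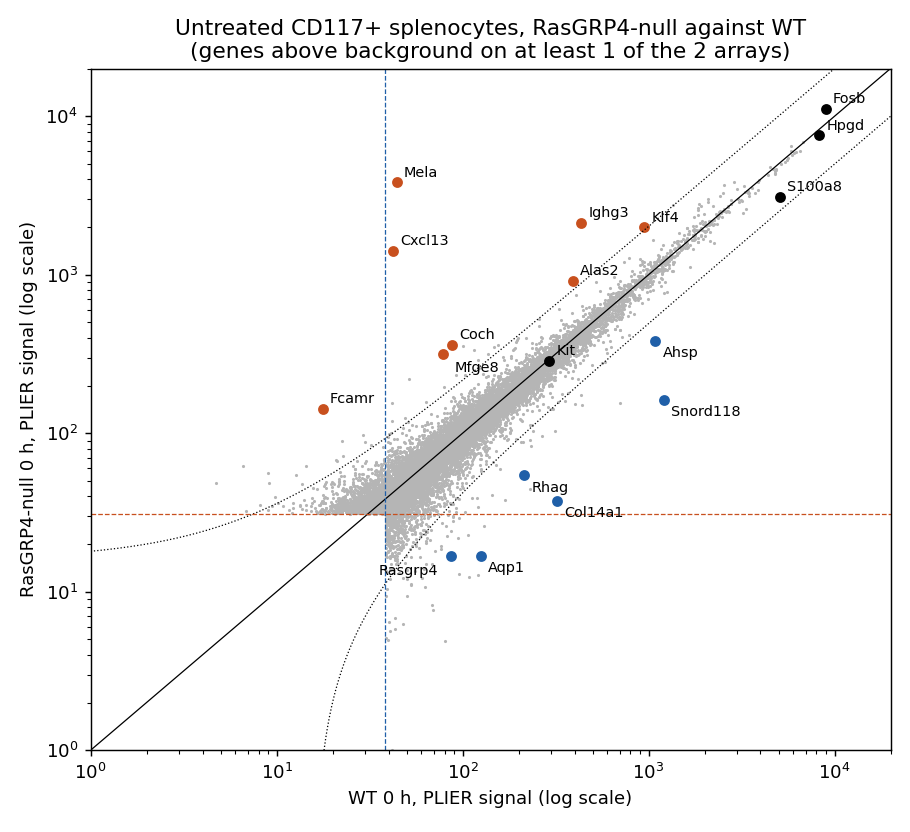
PLIER intensity of each gene above background on at least 1 untreated array, WT (x) against RasGRP4-null (y), both axes logarithmic. The solid line marks equality, dotted curves a 2-fold difference once 16 is added to each intensity, and dashed lines the background of each array, with values under 1 drawn at 1. Beyond the curves lie 43 genes above and 91 below, and Mela (44.2 and 3825) stands highest over the line among the labelled genes.

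As an addition made after the data were seen, limma was also fitted with the spread of the 4 LPS genotype pairs taken as the spread of the untreated pair. This assumes that the lone untreated pair varied like the LPS pairs. It called 38 of 11178 genes (0.340%), 11 higher and 27 lower in RasGRP4-null cells, and its p-values describe these cell preparations. Of the 38, 27 were above background on all 8 LPS arrays and at 50 or more on at least 2 of them. The spread of the other 11 came in part from values near background, so p-values are given only for genes of the 27. Leaving out the 24 h pair reduced this to 3 higher and 11 lower. The same fit called 22 genes (0.197%) whose difference at 0 h departed from that under LPS, 15 of them measured to that standard.

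Higher in untreated RasGRP4-null cells were Cxcl13, Coch, Mfge8 and Fcamr, several immunoglobulin genes and the retroviral transcript Mela. Cxcl13, the chemokine with which follicular DCs attract B cells, read 42.4 in WT and 1417 in RasGRP4-null cells before LPS, a 33.5-fold difference. The LPS arrays lay between 27.9 and 43.5 for Cxcl13, so a single array of the 10 was high. Coch, an extracellular matrix protein also made by follicular DCs, read 87.7 and 363, and lay between 16.9 and 31.0 on the LPS arrays, 4.14-fold higher at 0 h. Mfge8, the bridge protein for uptake of dying cells, read 78.9 and 315, and lay between 32.3 and 50.8 on the LPS arrays, 3.99-fold higher at 0 h. Fcamr, the Fc receptor for IgM and IgA, was below background in WT (17.7) and at 143 in RasGRP4-null cells, at least 3.71-fold higher, and it was below background on all 8 LPS arrays. Each of these genes was highest on the untreated RasGRP4-null array, and all but Fcamr were also above background in untreated WT cells. Other follicular DC genes, gathered after these values were seen, differed less: Cr2 read 690 and 732, Clu 113 and 87.1, Enpp2 49.7 and 70.6, Madcam1 43.2 and 43.9 and Sox9 124 and 94.2. In that after-the-fact list of 10 genes, 4 were past 2-fold higher and the median difference was 0.33. The part of these markers in the difference was not tested.

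Mela was 86.5-fold brighter on the untreated RasGRP4-null than on the untreated WT array (3825 and 44.2). It was not called in the fit with the LPS spread. Apol11b, an apolipoprotein L family gene, read 51.5 and 219, and Alg12, a mannosyltransferase of N-glycan assembly, 42.0 and 154.5 (adjusted p = 0.00903, or 0.0513 without the 24 h pair). The dim end of the list held Ugt2b35 (6.64 and 62.4), Gm12290 (4.71 and 48.3) and Lpin3 (8.97 and 56.1), each below background in WT cells.

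Lower in untreated RasGRP4-null cells were a small nucleolar RNA, a collagen, a water channel and a large share of dim transcripts. Snord118, the U8 small nucleolar RNA that serves ribosomal RNA processing, read 1214 in WT and 163 in RasGRP4-null cells, 7.44-fold lower. Its LPS values lay between 18.4 and 45.5 in both genotypes. Col14a1, a fibril-associated collagen, read 323 and 37.6, 8.58-fold lower, and was between 15.0 and 19.3 on the LPS arrays. The water channel Aqp1 of red cells and endothelium read 125 and 16.9, at least 4.01-fold lower. Klf11, a transcription factor of the Krüppel-like family, read 314 and 103 (adjusted p = 0.00903), and the monoamine oxidase Maoa 107 and 22.7 (adjusted p = 0.0113). Both kept their call when the 24 h pair was left out. Ipo4, a nuclear import receptor, read 131 and 25.8 (adjusted p = 0.00899), the sulfotransferase Gal3st2 120 and 12.8 (0.00721) and the cholesterol precursor enzyme Acat2 68.2 and 8.26 (0.0113), each with an adjusted p of 0.0513 without that pair. The remaining large differences were in predicted or little known genes, among them Gm6981 (699 and 154), Gm5124 (231 and 44.8), Olfr577 (95.8 and 12.9), Ceacam11 (80.0 and 4.90), 1700049L16Rik (108 and 12.5) and Gm10002 (69.4 and 7.64). Olfr577 is one of the olfactory receptors that set the background here, so its values are not read as expression.

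**Figure D3:**
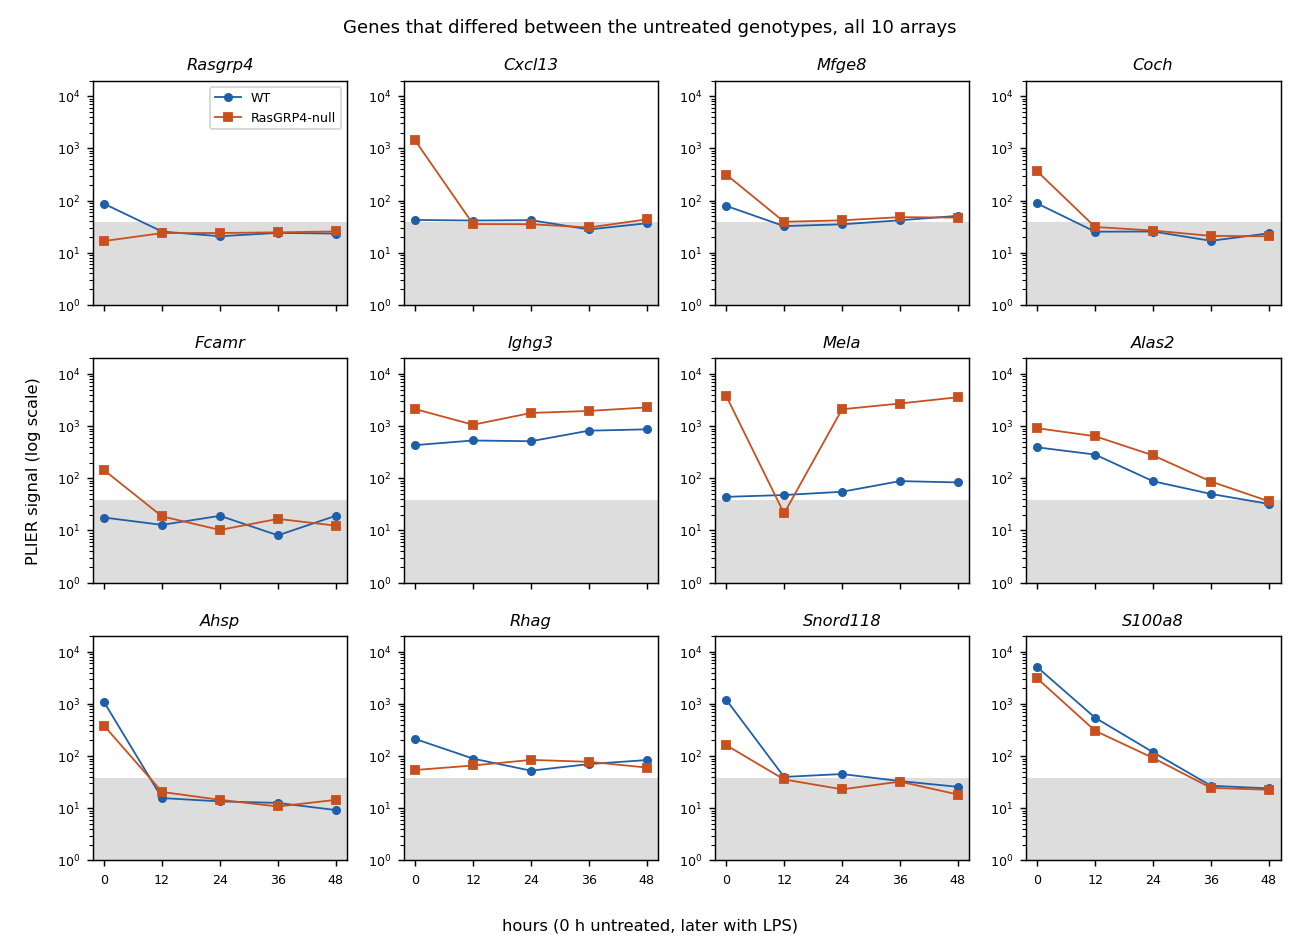
PLIER intensity (log axis) of 12 genes on all 10 arrays, by hours of LPS, WT and RasGRP4-null, with grey for values at or below the highest background level. Cxcl13, Coch, Mfge8 and Fcamr are highest on the untreated RasGRP4-null array, Mela is high on 4 of the 5 RasGRP4-null arrays, and Rasgrp4 is above background only on the untreated WT array.

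Neutrophil genes were lower in untreated RasGRP4-null cells across the list, though none reached 2-fold once 16 was added to each intensity. Of 14 genes, 12 were above background on both untreated arrays and 0 of these were higher in RasGRP4-null cells, with a median log2 difference of -0.69 and a range from -0.97 to -0.13. Over all genes 47.8% were higher in RasGRP4-null cells and the median was -0.01. S100a8 (5108 and 3108) and S100a9 (598.8 and 319.0), the calprotectin pair, the granule proteins Ngp (1250 and 777.8), Camp (628.7 and 347.9), Ltf (325 and 158) and Lcn2 (420 and 220), and the chemokine receptor Cxcr2 (66.7 and 32.7) were 1.61-fold to 2.06-fold lower as a plain ratio. The primary granule genes Mpo (170 and 116) and Elane (108 and 93.5), the collagenase Mmp9 (196 and 133) and Retnlg (661 and 602) differed less. The list summed to an intensity of 9749 in WT against 6073 in RasGRP4-null cells. None of the list was called in the fit with the LPS spread. At 12 h of LPS 5 members were above background on at least 1 array, 0 were higher in RasGRP4-null cells and the median was -0.80. The median was -0.02 over 3 genes at 24 h, -0.34 over 2 genes at 36 h and -0.50 over 2 genes at 48 h. With 1 untreated array a genotype, cell number, cell purity and genotype cannot be told apart.

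Windows before the starts of neutrophil genes are shown because this list moved one way at 0 h, and that of the macrophage gene C1qc is shown beside them. GAGGAAGT, the purine-rich site of the myeloid factor PU.1, was searched on both strands. It was in 5 of 13 neutrophil genes with a window (38.5%), 1 of 9 macrophage genes (11.1%) and 2.44% of all 32851 windows (RefSeq, GRCm38.p6). Only windows with a match are shown, and C1qc was the 1 macrophage gene that had one. Here too a gene counted if any of its windows matched, so shares of genes and of windows have unlike units. Capitals mark the match, or ACTTCCTC where it lies on the other strand. S100a8 is at chr3:90668821-90669070 on the plus strand, Mpo at chr11:87793534-87793783 on the plus strand and C1qc at chr4:136892915-136893164 on the minus strand.
S100a8: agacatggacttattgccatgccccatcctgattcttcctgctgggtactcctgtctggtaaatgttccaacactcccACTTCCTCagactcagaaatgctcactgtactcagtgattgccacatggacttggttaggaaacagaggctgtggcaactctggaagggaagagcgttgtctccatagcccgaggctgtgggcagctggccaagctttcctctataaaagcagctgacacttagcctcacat
Mpo: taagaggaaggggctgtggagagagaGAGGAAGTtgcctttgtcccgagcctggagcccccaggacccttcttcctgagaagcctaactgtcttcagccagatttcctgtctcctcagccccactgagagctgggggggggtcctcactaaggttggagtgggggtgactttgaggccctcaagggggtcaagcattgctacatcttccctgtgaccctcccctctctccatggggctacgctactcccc
C1qc: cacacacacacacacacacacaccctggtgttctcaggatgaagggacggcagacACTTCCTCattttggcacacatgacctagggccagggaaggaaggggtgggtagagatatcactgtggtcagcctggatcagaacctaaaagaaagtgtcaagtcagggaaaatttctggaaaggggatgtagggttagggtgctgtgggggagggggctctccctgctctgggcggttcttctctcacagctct
The match lay 164 bases before the start in S100a8, 216 in Mpo and 187 in C1qc.

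Red cell precursor genes differed in both directions between the untreated genotypes. Ahsp, the chaperone of alpha globin, read 1087 in WT and 384 in RasGRP4-null cells, 2.83-fold lower, with LPS values from 9.26 to 20.6, below background. Rhag, a Rh complex glycoprotein of the red cell membrane, read 214 and 54.3 (log2 difference -1.71 ± 0.30 SE, adjusted p = 0.0473), and the anion exchanger Slc4a1 433 and 175, 2.47-fold lower. Rhd, the Rh antigen, read 267 and 95.9 (-1.34, adjusted p = 0.0113). Alas2, the first enzyme of heme synthesis in red cells, went the other way, at 393 and 916, as did the bisphosphoglycerate mutase Bpgm, at 122 and 291 (1.16, adjusted p = 0.0438). Without the 24 h pair, the adjusted p was 0.0513 for Rhag and Rhd and 0.138 for Bpgm, and without the 48 h pair 0.0525 for Bpgm. Of 11 red cell precursor genes above background on at least 1 array, 1 was past 2-fold higher and 3 lower, with a median of -0.43. In a second red cell list of 13 genes, gathered after these values were seen, 1 was past 2-fold higher and 2 lower, with a median of -0.18. The plot of list differences sets the neutrophil, red cell precursor and immediate early genes side by side.

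**Figure D4:**
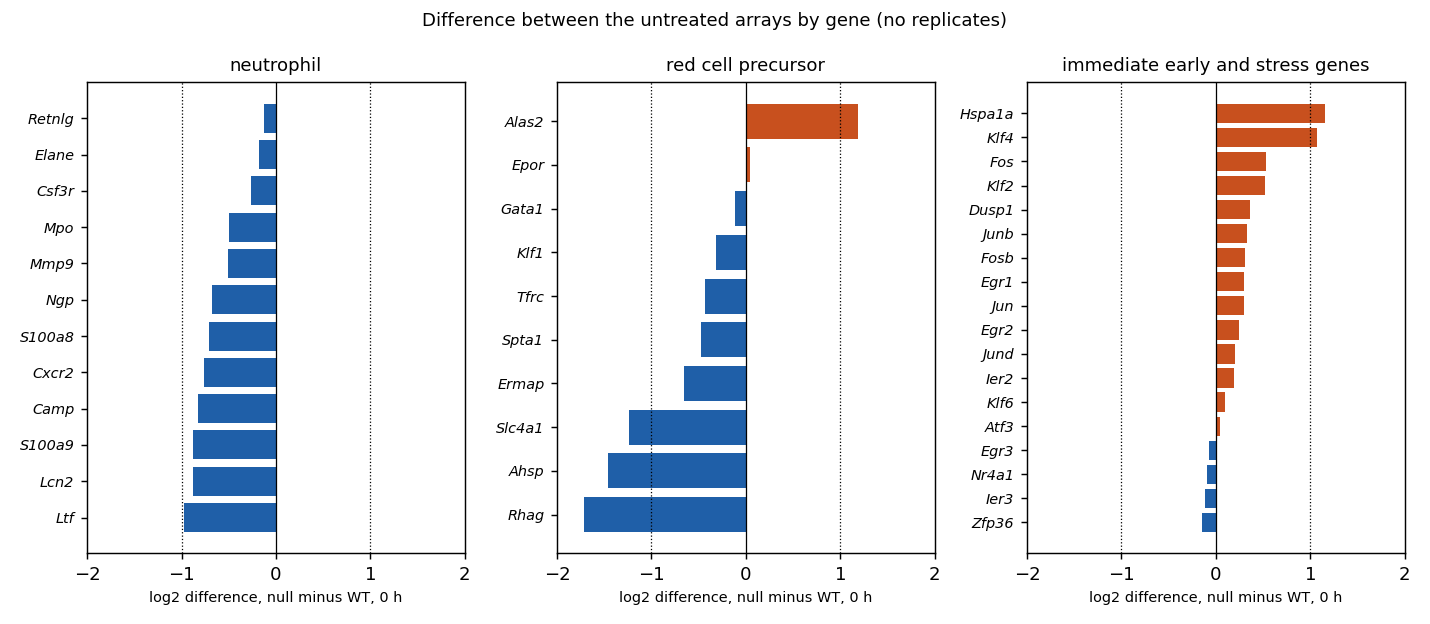
Log2 difference of untreated RasGRP4-null minus WT cells (bars, after adding 16) for neutrophil, red cell precursor and immediate early genes above background on at least 1 untreated array, with dotted lines at 2-fold. All 12 neutrophil bars point down, the 10 red cell bars drawn run from -1.71 to 1.19, and 14 of 18 immediate early bars point up.

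Immediate early genes were on balance brighter in untreated RasGRP4-null cells, with 14 of 18 higher and a median difference of 0.27. Over all genes 47.8% were higher and the median was -0.01. Klf4, a factor of monocyte differentiation, read 947 and 2003, and the heat shock chaperone Hspa1a 148 and 348, and these alone were past 2-fold. The list summed to an intensity of 34240 in WT against 41200 in RasGRP4-null cells. Among members above background on at least 1 array of a pair, 11 of 17 were higher in RasGRP4-null cells at 12 h of LPS, 11 of 14 at 24 h and 5 of 16 at both 36 h and 48 h.

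Ighg3 and the immunoglobulin genes among the 100 brightest were higher in untreated RasGRP4-null cells, whereas 2 of 14 B cell markers were. Of 4 constant region genes measured, a list gathered after these values were seen, 3 were above background and all 3 were higher, with a median difference of 1.42. Ighg3, the constant region of IgG3, read 434 in WT and 2131 in RasGRP4-null cells before LPS, 4.91-fold higher (2.26 ± 0.25 SE, adjusted p = 0.00453). On the LPS arrays it ran from 515 to 871 in WT and from 1067 to 2295 in RasGRP4-null cells, with no overlap (1.34 ± 0.13 SE, adjusted p = 0.00197, or 1.20 and 0.0552 without the 24 h arrays). All 8 immunoglobulin genes among the 100 brightest read 1.16-fold to 2.03-fold higher in RasGRP4-null cells, with Iglv1 at 2881 and 3875, Igk at 2998 and 3485 and Igkv19-93 at 1356 and 2754. Probe sets of variable segments can bind related segments, so single members are uncertain. Igj, the J chain of secreted IgM and IgA, read 1838 and 2653. Of 6 plasma cell genes 5 were higher in RasGRP4-null cells, with a median of 0.52, and Xbp1, the transcription factor of secretory cells, read 550 and 792. In the LPS pairs the medians of this list were 0.42, 0.39, 0.78 and 0.84, with no member lower among those above background. Igk-V28, a kappa variable segment, read 100 and 356 (1.68, adjusted p = 0.0292, or 0.0813 without the 24 h pair).

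Set against the LPS arrays, untreated cells were bright in macrophage and immediate early transcripts and dim in interferon-stimulated and proliferation transcripts. This contrast called 2407 genes higher (21.5%) and 5369 lower (48.0%) of 11178, with a median log2 difference of -0.26. That split depends on scaling: 31% of called genes were higher with PLIER values, 44.4% after quantile normalization (3392 higher, 4243 lower) and 92.2% after the GAPDH scaling of the deposited second table (11449 higher, 968 lower of 15023), which moved the median to 0.841. Each gene below kept its direction under all of these, apart from Il5ra, which was not called lower with GAPDH scaling. Of the 2407 genes called higher, 495 were below 50 on all 8 LPS arrays, so they reached the filter on the untreated arrays alone.

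All 16 macrophage markers were higher in untreated cells, also with GAPDH scaling, though 9 of them reached the filter of 50 on the untreated arrays alone, so the count is a description. C1qc was below background on all 8 LPS arrays (15.8 to 23.8), at least 204-fold brighter in untreated cells. Csf1r (14.5 to 27.2 on the LPS arrays) was at least 45-fold brighter, Mrc1 (8.37 to 16.8) at least 49.6-fold and Slc40a1 (3.65 to 15.5) at least 40.3-fold. Such bounds use the background level of each LPS array. Vcam1 fell to between 37.2 and 111 with a median of 48.5 (4.67 ± 0.13 SE, adjusted p = 2.42e-10). Ccr3 (2.83 to 6.10) was at least 35.8-fold brighter in untreated cells, and Cadm1 (13.8 to 22.9) at least 40.4-fold. Of the 4 eosinophil genes tested 3 were higher and Il5ra was lower in untreated cells, 1 of the 4 having reached the filter there alone. With GAPDH scaling 3 genes of that list were higher and 0 lower. Hpgd lay between 28.7 and 43.9 on the LPS arrays, against 8251 and 7592 at 0 h. S100a8 lay between 22.7 and 547 there with a median of 59.8 (5.38 ± 0.15, adjusted p = 2.68e-10). Of 11 neutrophil genes tested 10 were higher in untreated cells, 6 of the 11 having reached the filter there alone.

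**Figure D5:**
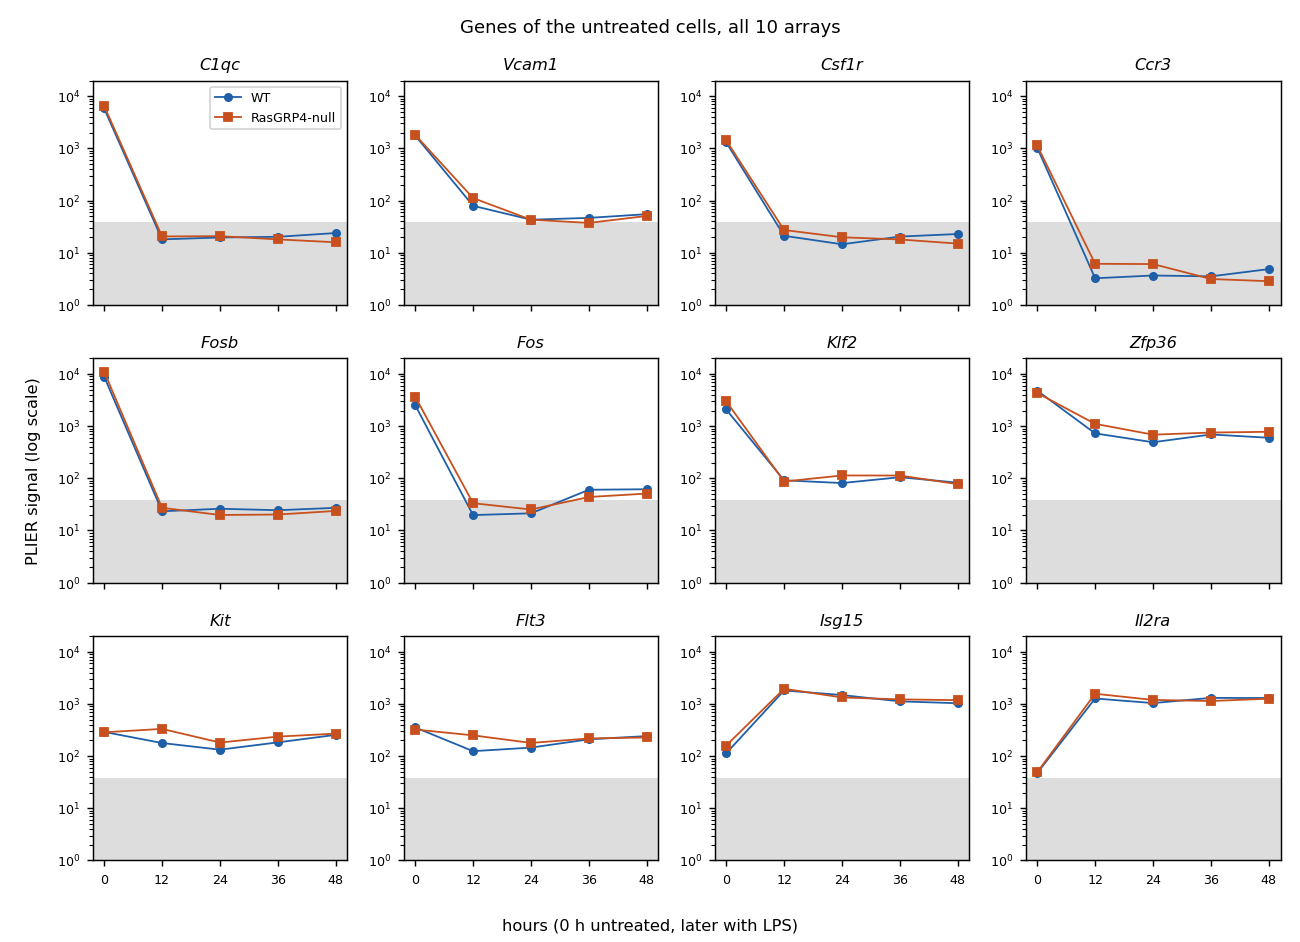
PLIER intensity (log axis) of 12 genes on all 10 arrays by hours of LPS, WT and RasGRP4-null. C1qc, Csf1r, Ccr3 and Fosb are above background only at 0 h, Isg15 and Il2ra are lowest at 0 h, and Kit stays between 133 and 334 throughout.

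Antigen presentation and receptor genes differed as well. All 6 MHC class II genes measured were higher in untreated cells, H2-Eb1 by 1.56 ± 0.11 on the log2 scale (905 to 1321 on the LPS arrays, adjusted p = 3.15e-07). Of 14 C-type lectins 11 were higher and 3 lower, of 10 Fc receptors 7 and 2, and of 16 Toll-like receptor genes 8 and 4. With GAPDH scaling those counts were 12 and 1, 8 and 1, and 15 and 1, over the genes that passed the filter there. Below 50 on all LPS arrays were 7 of the 14 lectins, 3 of the 10 Fc receptors and 5 of the 16 Toll-like genes. Such genes reached the filter on the untreated arrays alone, so the counts are a description. Fcer2a was 4.31 ± 0.15 higher (adjusted p = 1.24e-09), Fcer1g 1.73 ± 0.11 (adjusted p = 2.28e-07) and Itgax 3.31 ± 0.14 (adjusted p = 6.99e-09). B cell markers depended on scaling, with 3 higher and 5 lower of 14 by PLIER values and 14 higher with GAPDH scaling. Flt3 was 0.75 ± 0.17 higher in untreated cells (125 to 251 on the LPS arrays, adjusted p = 0.00255), and lost the call without the WT 0 h array (0.54, adjusted p = 0.0697) and against 48 h alone (0.50, adjusted p = 0.068). Kit, at 133 to 334 on the LPS arrays, was 0.40 ± 0.15 higher (adjusted p = 0.0312). That call was lost without the WT 0 h array (0.18, adjusted p = 0.441), the WT 24 h array (0.39, 0.0621), the RasGRP4-null 24 h array (0.42, 0.0508) or the RasGRP4-null 48 h array (0.36, 0.0595), against 12 h alone (0.23, adjusted p = 0.318) and against 48 h alone (0.13, adjusted p = 0.577).

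Low in untreated cells were 13 of 14 interferon-stimulated genes, with 0 higher. Isg15, a ubiquitin-like protein induced by interferon, read 114 and 160 at 0 h and between 1037 and 1964 on the LPS arrays (-3.20 ± 0.12 SE, adjusted p = 2.7e-09). Usp18, which removes ISG15 from proteins, read 68.8 and 63.3 against 918 to 1377 (-3.73 ± 0.10, adjusted p = 2.07e-10). Il2ra, the alpha chain of the IL-2 receptor, read 47.5 and 49.2 against 1044 to 1577 (-4.31 ± 0.12, adjusted p = 2.42e-10). The cytokine Il6 and the iron hormone Hamp were below background on both untreated arrays and at least 13.1-fold and 20.6-fold brighter on the LPS arrays. Of 10 proliferation genes 9 were lower in untreated cells. Of 12 costimulatory genes, 2 of them below background on both untreated arrays, 9 were lower and 3 higher. With GAPDH scaling those counts were 6 of 10 lower and 6 of 12 lower, with 12 of 14 interferon-stimulated genes lower.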

How the data were processed

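Total RNA of CD117+ splenocytes was hybridized to Affymetrix MoGene-2_0-st arrays, 1 array per genotype and time. The authors made the deposited PLIER intensity values in Affymetrix Expression Console (version not given in the sources used here). A second deposited table, of the same signal multiplied by 1 GAPDH factor per array (2.24 for WT and 2.41 for RasGRP4-null cells at 0 h, 1.00 to 1.31 with LPS), served as an alternative. A workbook with 20 columns that repeat both signals was not used.

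Of 41345 probe sets, 26679 had 1 gene symbol, 3047 several and 11619 none. A gene with several probe sets was given the one brightest on average on the 2 untreated arrays, leaving 25664 genes. That choice was kept for all fits, so in untreated against LPS it can favour higher values at 0 h. Log2 differences are on log2(PLIER + 16), which understates changes of dim genes. A difference past 2-fold was counted among genes above background on at least 1 untreated array. limma 3.58.1 in R 4.3.3 (lmFit, eBayes, Benjamini-Hochberg adjustment over all genes, threshold 0.05) was used on genes of at least 50 on at least 2 arrays. Untreated against LPS used all 10 arrays with genotype and time as additive factors (4 residual degrees of freedom), and RasGRP4-null against WT the 8 LPS arrays (3 residual degrees of freedom). The fit at 0 h with the spread of the LPS pairs was added after the data were seen. Tests were checked on simulated data with 200 of 11178 genes changed: at a log2 change of 1, 93% were recovered for untreated against LPS, 90% for the genotypes on the LPS arrays and 0% for the 0 h fit, and at a log2 change of 2, 100%, 100% and 90%. The number of arrays limits the precision, and p-values describe these cell preparations. Genes named were members of gene lists for cell types, receptors and pathways, the 30 brightest genes, the 12 largest differences in each direction between the untreated genotypes and up to 10 in each direction against LPS. Members and lists were chosen with earlier results of these data known. Alternatives were other pseudocounts, filters, background levels, fold thresholds, scalings and leaving out each array. Upstream sequences are those of RefSeq (GRCm38.p6). Values of some single list members are not reported here, though the counts include them.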

Additional observations from a re-analysis of the deposited data

Results flagged for a closer look

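Genotype differences at 0 h that departed from those under LPS are given here as values of RasGRP4-null minus WT at 0 h minus the same under LPS, on the log2 scale. They come from the fit added after the data were seen, which called 22 of 11178 genes (0.197%; 842 at an unadjusted p under 0.05), and which fell to 0 higher and 1 lower without the 24 h pair. Of the 22, 15 were above background on all 8 LPS arrays and at 50 or more on at least 2 of them, and only such genes are listed, since a difference near background is held close to 0. Among genes named in the report, the difference was larger at 0 h for Alg12 (1.47). It was more negative at 0 h for Gm6981 (-2.15), Gm5124 (-2.07), Olfr577 (-1.84), Ipo4 (-1.97), Klf11 (-1.44), Acat2 (-1.68) and Maoa (-1.84). Olfr577 belongs to the olfactory receptors taken as unspecific signal, and it was called all the same.

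Islr, a secreted leucine-rich repeat protein, differed by -1.85 at 0 h (41.9 in WT and 0.0287 in RasGRP4-null cells) and in the opposite direction in all 4 LPS pairs. All LPS values, 17.6 to 24.5, were below background, and the difference between times was not tested.

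Probe sets that carry no gene symbol were not used in the comparisons. Of 11619, 3217 (27.7%) were above background on both untreated arrays.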

How the results depend on the processing

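Counts between the untreated genotypes depended on the pseudocount and scaling. Genes above background on both arrays numbered 6178 with the 99th percentile. Past 2-fold, 117 were higher and 253 lower with a pseudocount of 1, and 12 and 19 with 64. GAPDH scaling gave 104 higher, quantile normalization 67 higher and the 99th percentile 38 lower. At 1.5-fold 246 were higher and 495 lower, and at 3.6-fold 5 and 11. The SD of the difference was 0.4056 with a pseudocount of 1, 0.2073 with 64 and 0.3599 with GAPDH scaling. For untreated against LPS, GAPDH scaling gave 11449 higher and 968 lower, a filter of 100 gave 1491 higher and no filter 3949 higher; leaving out 1 array gave 1830 to 2516 higher and 4321 to 5397 lower. For the genotypes on the LPS arrays, GAPDH scaling gave 80 higher and 14 lower, a pseudocount of 1 gave 13 and 1, and 64 gave 11 higher; leaving out 1 array gave 0 to 34 higher, 0 without a 24 h array, and 1 to 5 lower. For the 0 h fit, GAPDH scaling gave 38 higher and 59 lower, quantile normalization 22 and 42, and a pseudocount of 64 gave 10 lower; leaving out 1 pair gave 3 to 20 higher and 11 to 38 lower, both lowest without the 24 h pair. For 0 h against LPS pairs, GAPDH scaling gave 12 and 43, a pseudocount of 1 gave 27 lower and 64 gave 3 and 4; leaving out 1 pair gave 0 to 4 higher and 1 to 17 lower. The cause was not tested. Of 631 alternatives for 48 single-gene results, 586 kept direction and call, 43 lost the call, 2 gained it (Tlr4) and 0 reversed. Over all list members and largest differences tested for untreated against LPS, however, 64 reversed with GAPDH scaling, 10 against 12 h alone, 1 against 48 h alone and 1 after quantile normalization. No paired analysis was possible because the labels give no replicate numbers; genotypes were matched by time alone. In simulated data the 0 h fit recovered 0% of genes changed by 1 on the log2 scale, so few changes of that size could be called there.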

Other observations

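Several bright genes share a probe set with another gene and were left out of the counts. The MHC class II chains H2-Ab1 (4235 in WT and 4209 in RasGRP4-null cells) and H2-Aa (2318 and 2146) and their chaperone Cd74 (3887 and 3826) were bright on both untreated arrays. Clec9a, a receptor of cross-presenting DCs for dead cells, read 608 and 557, and Ly6a, which encodes the progenitor antigen Sca-1, 730 and 840. The probe set of Hba-a1, an alpha globin gene, read 4338 and 4683, whereas the alpha globin chaperone Ahsp read 1087 and 384.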
